A study of Mus musculus with 25 samples.

Results

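The 10 homozygous Bin1-cKO mice of this study carry animal numbers in 2 separate ranges, and their microglia were compared between these ranges. Mice whose number starts with 03 (6 mice, 3 females and 3 males) were set against mice whose number starts with 04 (4 mice, 2 females and 2 males), so the comparison used 10 of the 23 mice with data. All 10 carried 2 floxed Bin1 alleles and the Thy1-Cre transgene (Bin1flox/flox Thy1-Cre+, from the lines B6.129S6-Bin1tm2Gcp/J and FVB/N-Tg(Thy1-cre)1Vln/J). The 6 WT mice (Bin1flox/wt without Cre) and the 7 heterozygous mice (Bin1flox/wt Thy1-Cre+) have numbers starting with 02, so genotype and number range cannot be told apart between them and the homozygous mice. Every mouse was 3 months old, and each library held RNA from CD11b+ CD45med cells sorted from brain without cerebellum and olfactory bulbs. Thy1-Cre was used to delete Bin1 in neurons, so the sorted cells are not the cells targeted for deletion. The labels give the animal numbers but do not say what a number range stands for.

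Microglia are the resident macrophages of the brain, and they keep a characteristic set of receptors as long as the tissue is undisturbed. Immediate-early genes such as Fos, Jun and Egr1 are transcribed within minutes of a stimulus without new protein synthesis, and in microglia many kinds of stimulus induce them. Heat shock genes encode chaperones that are induced when proteins misfold, and canonical histone genes supply the proteins that package newly made DNA.

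Libraries of the 2 ranges had similar depth, and both held the microglial markers. Total counts were 10812877 to 16734740 in the 03 range and 12816678 to 16212614 in the 04 range. The microglial genes P2ry12, Tmem119, Cx3cr1, Sall1, Siglech, Csf1r, Itgam and Ptprc were detected in all 10 mice, with Tmem119 at 5896 to 6879 CPM (read counts relative to library size, scaled by TMM) in the 03 range and 6172 to 7170 CPM in the 04 range. Markers of other cells were low but not all absent. Over the 10 mice, the neuronal marker Syt1 stayed at or below 0.370 CPM and Camk2a at or below 6.04 CPM, while the oligodendrocyte marker Mbp reached 64.3 CPM. Among endothelial markers, Pecam1 reached 51.9 CPM and Cldn5 was listed at 0 in every homozygous mouse, and among those of border macrophages Pf4 reached 7.86 CPM and Mrc1 was listed at 0. Their part in the differences between the ranges was not tested. Of 12 library measures (depth, genes detected, mitochondrial share, share of the 50 most counted genes and 8 marker shares), none had an adjusted p below 0.05 (two-sided exact permutation tests, smallest adjusted p = 0.57). The smallest p that 6 and 4 mice allow is 0.0095 before adjustment, so a single measure could not have passed over 12. The share of oligodendrocyte markers was lower in the 03 range at an unadjusted exact permutation p of 0.048. These tests therefore do not show that the libraries were alike. Of 12422 genes tested, 6318 (50.9%) had a log2 fold change above 0, with a median of 0.0039. Fold changes are given throughout as 03 range minus 04 range.

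Gene expression separated the 2 ranges along the first principal component. This component held 20.8% of the variance of log2 CPM, with scores of 17.1 ± 17.3 (SD, n = 6) in the 03 range and -25.6 ± 13.1 (SD, n = 4) in the 04 range. The ranges did not overlap (two-sided exact permutation test, p = 0.0095, the smallest that 210 splits allow, adjusted p = 0.029 over 3 components). Within the 03 range, F-0357 at -1.87 and M-0344 at -7.67 lay nearest to the 04 range, and the other 4 mice lay between 24.1 and 32.4. Components 2 and 3 did not separate the ranges (exact permutation p = 0.85 and 0.66). Without the 35 immediate-early genes tested, which left 12387 genes, the difference on component 1 was 40.6, against 42.7 with them. The lowest score of the 03 range was then -4.91 and the highest of the 04 range -6.37. With so few genes left out, the relation of this separation to the immediate-early genes was not tested.

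**Figure D1:**
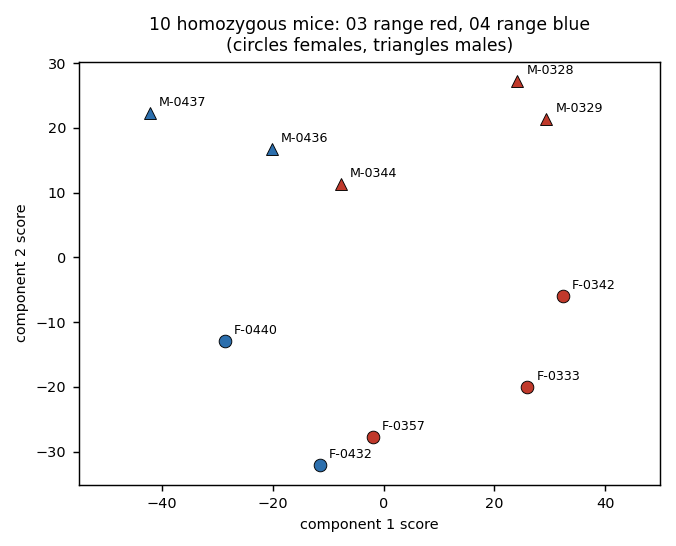
Scores of the 10 homozygous mice on components 1 (x axis) and 2 (y axis) of log2 CPM, labelled by animal number, with the 03 range in red and the 04 range in blue. On component 1 the 03 range lies between -7.67 and 32.4 and the 04 range between -42.1 and -11.5, with F-0357 and M-0344 closest to the 04 range.

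At the level of single genes, only Gpr65 passed the thresholds among the 10 mice (edgeR's quasi-likelihood test, adjusted p below 0.05 and fold change above 1.5). Gpr65 encodes a proton-sensing G protein-coupled receptor of immune cells. This is 1 of 12422 genes, or 0.00805%, and no gene passed in the other direction. Another 9 genes had adjusted p values of 0.091 to 0.094, and 1195 genes (9.62%) had an unadjusted p below 0.05, 673 (5.42%) higher and 522 (4.2%) lower in the 03 range. The number of calls depended strongly on the fit. When the WT and heterozygous mice shared the fit, so that 4 groups gave 1 estimate of the spread, 49 of 13373 genes (0.366%) were called between the ranges, 42 higher (0.314%) and 7 lower (0.0523%) in the 03 range. DESeq2 on the 10 mice called 86 genes, 60 higher and 26 lower, and 41 of them were among these 49. With all 23 mice, limma-voom still called 12 of the 49. With the mean immediate-early level as a covariate, edgeR still called 3 of them. For 235 of the 12422 genes (1.89%) the ranges did not overlap, with 140 (1.13%) higher and 95 (0.765%) lower in the 03 range. The adjusted p values below come from the fit of the 10 mice unless the 23-mouse fit is named.

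**Figure D2:**
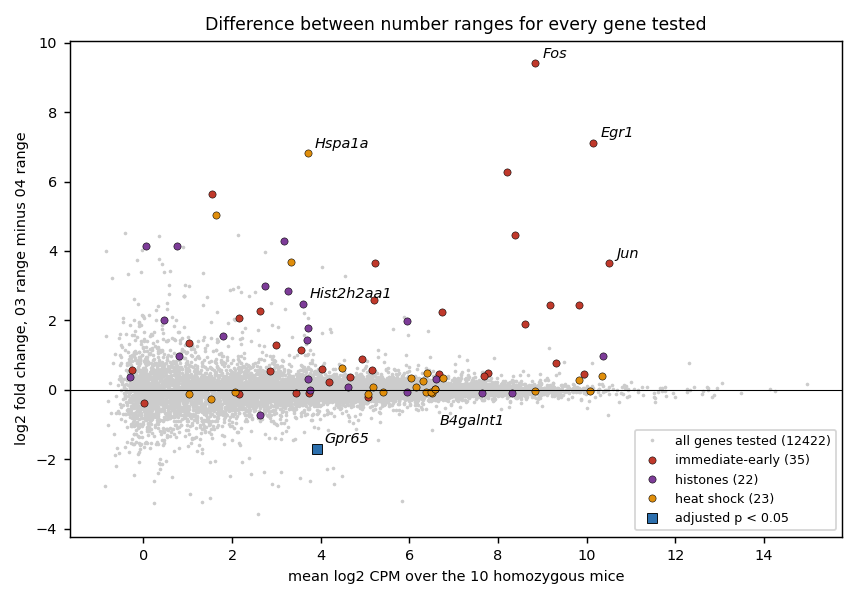
Log2 fold change between the ranges (y axis, 03 minus 04) against the mean log2 CPM of the 10 homozygous mice (x axis) for the 12422 genes tested, with 35 immediate-early genes in red, 22 histone genes in purple and 23 heat shock genes in orange. Fos stands at 9.41 and Egr1 at 7.12, while Gpr65, the blue square at -1.70, is the only gene with an adjusted p below 0.05.

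The promoters below show 3 of the immediate-early genes with high values in the 03 range, and Gpr65, the gene that was lower there. They are the reference sequences of RefSeq on GRCm38.p6, from 250 bases before to 50 bases after the annotated start, written 5′ to 3′ along the gene. Capitals mark a TATA box (TATAAA) in Fos, a cAMP response element (TGACGTCA) in Dusp1, a CArG box (the site of serum response factor) in Zfp36, and the letters of TATAAA and CCAAT, both on the opposite strand, in Gpr65. The windows lie on chromosome 12 from 85473640 to 85473939 (plus strand, Fos), chromosome 17 from 26508423 to 26508722 (minus strand, Dusp1), chromosome 7 from 28379179 to 28379478 (minus strand, Zfp36) and chromosome 12 from 98268385 to 98268684 (plus strand, Gpr65).
Fos: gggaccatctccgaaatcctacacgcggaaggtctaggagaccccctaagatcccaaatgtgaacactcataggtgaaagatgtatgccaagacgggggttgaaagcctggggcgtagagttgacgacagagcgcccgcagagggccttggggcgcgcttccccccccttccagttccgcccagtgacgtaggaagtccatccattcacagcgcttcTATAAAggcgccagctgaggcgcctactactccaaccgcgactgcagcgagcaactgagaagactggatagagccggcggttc
Dusp1: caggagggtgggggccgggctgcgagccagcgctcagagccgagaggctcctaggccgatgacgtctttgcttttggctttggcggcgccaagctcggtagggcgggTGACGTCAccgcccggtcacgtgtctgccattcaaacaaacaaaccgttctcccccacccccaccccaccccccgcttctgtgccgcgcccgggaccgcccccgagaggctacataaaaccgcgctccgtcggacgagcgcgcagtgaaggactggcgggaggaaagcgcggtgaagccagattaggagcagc
Zfp36: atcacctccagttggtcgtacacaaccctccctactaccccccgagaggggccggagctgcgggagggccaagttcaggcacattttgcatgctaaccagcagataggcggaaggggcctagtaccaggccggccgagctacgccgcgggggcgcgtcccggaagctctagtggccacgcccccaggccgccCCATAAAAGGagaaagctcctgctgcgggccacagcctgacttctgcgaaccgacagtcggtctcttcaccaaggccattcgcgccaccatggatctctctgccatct
Gpr65: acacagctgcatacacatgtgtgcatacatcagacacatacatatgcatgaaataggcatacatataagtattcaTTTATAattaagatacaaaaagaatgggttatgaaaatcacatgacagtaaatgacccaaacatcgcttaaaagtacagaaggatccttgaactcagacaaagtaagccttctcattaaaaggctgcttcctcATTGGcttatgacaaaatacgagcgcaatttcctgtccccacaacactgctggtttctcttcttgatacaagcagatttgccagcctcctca
Motifs were searched on both strands. Among the 29 immediate-early genes tested that matched a promoter by symbol, 2 held a CArG box and 4 held TGACGTCA, against 1.44% and 3.72% of the 9014 matched genes tested. Of all 32851 windows, 1.63% held a CArG box, 1.79% held TGACGTCA and 0.603% held the consensus heat shock element. This element was found in 4 of 18 matched heat shock genes (Chordc1, Hspd1, Hspe1 and Hsph1), against 0.588% of the 9014 matched genes tested. Hspa1a and Hspa1b were matched and did not hold it. These are matches of letters only.

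Among the genes with lower values in the 03 range, Gpr65 (ENSMUSG00000021886.6, chromosome 12 of GRCm38 from 98268635 to 98276644) had 4.97, 7.89 and 10.7 CPM as lowest, median and highest value of the 03 range. In the 04 range it had 20.1, 19.8, 32.5 and 27.3 CPM in F-0432, F-0440, M-0436 and M-0437. All 4 mice of the 04 range lay above every other mouse of the study, since WT mice had 5.30 to 11.3 CPM and heterozygous mice 5.25 to 11.2 CPM. The log2 fold change was -1.70 (standard error, SE, 0.21, and adjusted p = 0.039), and in the 23-mouse fit it was -1.72 (SE 0.23, adjusted p = 0.00074). Against WT mice the 03 range differed by -0.20 (adjusted p = 0.61) and the 04 range by 1.52 (adjusted p = 0.00046). Leaving out a mouse kept the call in 3 of 10 cases, and the adjusted p ranged from 0.013 without F-0357 to 0.24 without M-0436, with log2 fold changes between -1.81 and -1.57. Of the gene's exon bases, 24.7% overlap the antisense gene Gm47566, which has no row in the table, and reads of the pair cannot be told apart, since the library kit does not mark strand.

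The other 6 genes called lower in the 23-mouse fit were B4galnt1, H2-DMb2, Cox6a2, Mctp1, Slamf9 and Speg. B4galnt1 (chromosome 10 from 127165225 to 127172330), the synthase that makes complex gangliosides, had 42.2, 49.9 and 87.5 CPM as lowest, median and highest value of the 03 range and 132, 152, 146 and 96.0 CPM in F-0432, F-0440, M-0436 and M-0437. Its ranges did not overlap, and here all 6 mice of the 03 range also lay below the WT mice (90.1 to 125 CPM). The log2 fold change was -1.17 (SE 0.18, adjusted p = 0.091), or -1.16 with an adjusted p of 0.00074 in the 23-mouse fit. Of the exon bases of B4galnt1, 20.7% overlap Slc26a10 on the opposite strand, and reads from there cannot be told apart. H2-DMb2 (chromosome 17 from 34143307 to 34151555), a chain of the molecule that loads peptides onto MHC class II, had 11.9, 16.2 and 31.3 CPM as lowest, median and highest value of the 03 range and 44.1, 39.3, 24.8 and 48.9 CPM in the 04 range mice in the same order. M-0436 overlapped the 03 range, and the WT mice at 33.1 to 47.3 CPM resembled the 04 range. H2-DMb2 had a log2 fold change of -1.13 (SE 0.24, adjusted p = 0.16, and 0.0026 in the 23-mouse fit). H2-DMb2 shares 41.0% of its 25-base sequences with other genes, mainly H2-DMb1, whose own log2 fold change was 0.16 (adjusted p = 0.81).

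Mctp1, Slamf9 and Speg had the opposite relation to the WT mice. Mctp1 (chromosome 13 from 76384535 to 77031810), a calcium-binding membrane protein, had 28.6, 29.5 and 42.9 CPM as lowest, median and highest value of the 03 range and 48.7, 50.1, 50.8 and 50.5 CPM in F-0432, F-0440, M-0436 and M-0437. The 04 range mice lay close together and above all other mice of the study, with WT mice at 20.7 to 34.5 CPM. The log2 fold change was -0.66 (SE 0.11, adjusted p = 0.094, and 0.024 in the 23-mouse fit). Against WT mice, Mctp1, Slamf9, a receptor of the SLAM family, and Speg, a muscle-type kinase, passed in the 04 range with log2 fold changes of 0.84, 0.86 and 0.73 (adjusted p = 0.0012, 0.00081 and 0.0056). In the 03 range these differences were 0.17, 0.21 and 0.02 (adjusted p = 0.44, 0.33 and 0.94). Cox6a2, the muscle form of a cytochrome c oxidase subunit, had 0.888 to 3.56 CPM in the 03 range and 4.61 to 12.9 CPM in the 04 range (log2 fold change -1.60, adjusted p = 0.15, and 0.0072 in the 23-mouse fit). Of the 7 genes called lower in the 23-mouse fit, the 02 range mice were nearer to the 03 range in 4 and nearer to the 04 range in 3.

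**Figure D3:**
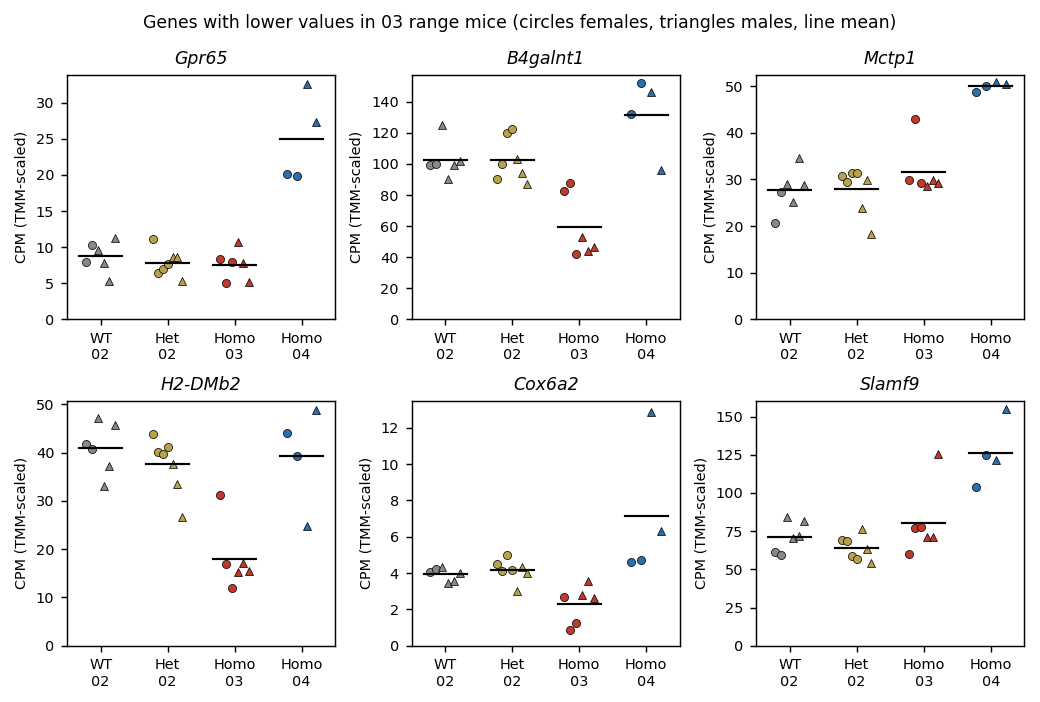
CPM (y axis, from 0) in each mouse of the 4 groups (x axis) for 6 of the 7 genes called lower in the 03 range with all 23 mice in the fit, with circles for females, triangles for males and a line at the group mean. Gpr65 and Mctp1 in the 04 range, at 19.8 to 32.5 and 48.7 to 50.8 CPM, lie above all other mice, while B4galnt1 and H2-DMb2 are low in the 03 range.

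In all, 95 genes had non-overlapping ranges with lower values in the 03 range, and 4 of them that did not pass the adjustment are given as examples. The first is Ctsl, the lysosomal protease cathepsin L, with 664 to 1110 CPM in the 03 range and 1123 to 1290 CPM in the 04 range (log2 fold change -0.52, adjusted p = 0.22). Sorl1, a sorting receptor of the endosome, had 17.9 to 34.7 against 35.2 to 66.2 CPM, and Gpr35, another G protein-coupled receptor, had 10.7 to 25.0 against 25.5 to 40.1 CPM (adjusted p = 0.23 and 0.22). Galnt6, which starts O-linked glycosylation, had 2.10 to 5.45 against 5.51 to 16.3 CPM (log2 fold change -1.28, adjusted p = 0.14). The gaps between the ranges were narrow for Ctsl, Sorl1, Gpr35 and Galnt6. These 4 genes were chosen after their values were seen.

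Fos and Egr1 had the largest fold changes of all genes tested, and 4 of the 6 mice of the 03 range carried most of the difference in immediate-early genes. Of 46 genes listed, 44 had a row and 35 were tested, and 30 had a positive and 5 a negative fold change, with a median log2 fold change of 0.90. None passed the adjustment among the 10 mice (edgeR, smallest adjusted p = 0.14), while 23 had an unadjusted p below 0.05 with higher values in the 03 range, beside 5.42% of all genes, and 1 (Mafk) with lower values. In the 23-mouse fit 13 of 36 tested were called higher in the 03 range, beside 0.314% of all genes, and none lower. These were Fos, Jun, Egr1, Zfp36, Dusp1, Ier2, Junb, Jund, Rhob, Klf2, Ppp1r15a, Ier3 and Fosb. DESeq2 on the 10 mice called 12. The list was written with earlier results of these libraries known, so these counts are not independent evidence.

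Fos (chromosome 12 from 85473890 to 85477273), a subunit of the AP-1 transcription factor, had 5.31, 875 and 1453 CPM as lowest, median and highest value of the 03 range. In the 04 range it had 0.910, 0.362, 1.98 and 1.11 CPM in F-0432, F-0440, M-0436 and M-0437, and in WT mice 0.0683 to 1.72 CPM. The ranges did not overlap, yet F-0357 at 7.02 and M-0344 at 5.31 CPM were far closer to the 04 range than to F-0333, F-0342, M-0328 and M-0329. The log2 fold change was 9.41 (SE 1.81, adjusted p = 0.14, and 0.00074 in the 23-mouse fit). Jun, its partner in AP-1, had 302, 2968 and 3487 CPM as lowest, median and highest value of the 03 range and 202, 175, 194 and 140 CPM in the 04 range, with F-0357 and M-0344 at 302 and 343 CPM. For Jun, too, all 6 mice of the 03 range lay above the 04 range and above the WT mice (115 to 181 CPM). Jun had a log2 fold change of 3.64 (SE 0.71, adjusted p = 0.14, and 0.00074 in the 23-mouse fit).

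Egr1, a zinc finger transcription factor, had 18.9, 2204 and 3477 CPM as lowest, median and highest value of the 03 range and 12.6, 12.8, 13.6 and 13.3 CPM in the 04 range (log2 fold change 7.12, adjusted p = 0.16, and 0.0012 in the 23-mouse fit). Zfp36, which promotes the decay of cytokine mRNAs, had 193, 1037 and 1232 CPM and 172, 141, 156 and 143 CPM in the same order (log2 fold change 2.43, adjusted p = 0.16, and 0.0012 in the 23-mouse fit). Rhob, a small GTPase, had 511 to 907 CPM in the 03 range and 337 to 491 CPM in the 04 range. These 5 genes, Fos, Jun, Egr1, Zfp36 and Rhob, were the immediate-early genes without overlap, beside 1.13% of all genes. In contrast, Dusp1 (a phosphatase of MAP kinases), Ier2, Klf2 and Fosb overlapped: F-0357 had 7.72 CPM of Dusp1 and 19.7 of Ier2, where the 04 range reached 8.0 and 37.4 CPM, and M-0344 had 3.77 CPM of Klf2, where the 04 range reached 6.15 CPM, and no Fosb count. Their log2 fold changes of 6.26, 4.47, 3.65 and 5.64 (adjusted p = 0.16, 0.18, 0.26 and 0.26) thus rested on 4 mice of the 03 range. Mean log2 CPM of the 35 genes ranged from 3.95 to 6.40 in the 03 range, 3.76 to 4.10 in the 04 range and 3.47 to 3.77 in the WT mice. Fewer cells with a transcript and less of it per cell cannot be told apart in these bulk libraries.

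**Figure D4:**
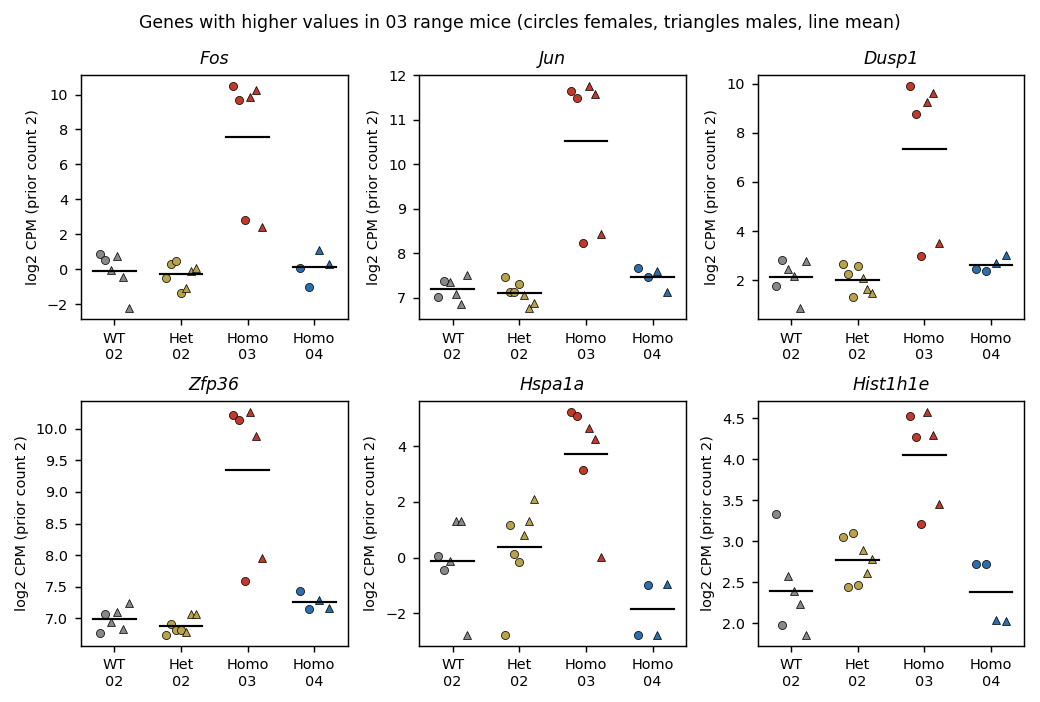
Log2 CPM (y axis, prior count 2) in each mouse of the 4 groups (x axis) for 4 immediate-early genes, the chaperone gene Hspa1a and the linker histone gene Hist1h1e, with circles for females, triangles for males and a line at the group mean. In the 03 range 4 mice form an upper cluster for Fos, Jun, Dusp1 and Zfp36, and F-0357 and M-0344 lie near the 04 range.

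Outside the immediate-early genes, histone genes made up the largest group of calls. Of 27 histone genes listed, 22 were tested, 17 with positive and 5 with negative fold changes, at a median log2 fold change of 1.2. None passed among the 10 mice (edgeR, smallest adjusted p = 0.091), while 13 had an unadjusted p below 0.05 with higher and 1 (Hist2h2be) with lower values in the 03 range, beside 5.42% and 4.2% of all genes. The ranges did not overlap for 6 of the 22, all higher in the 03 range, beside 1.13% of all genes. In the 23-mouse fit, 11 of the list were called higher, beside 0.314% of all genes, and none lower. These were the linker histones Hist1h1c, Hist1h1d and Hist1h1e, the H2A genes Hist1h2ac, Hist1h2ae and Hist2h2aa1, the H2B gene Hist1h2bg, the H3 genes Hist1h3e and H3f3b and the H4 genes Hist1h4h and Hist4h4. Hist2h4, another H4 gene that was not on the list, was also called. Of these, 8 lie in the histone cluster of chromosome 13 between 23531050 and 23740367, and Hist2h2aa1 and Hist2h4 lie on chromosome 3 between 96245497 and 96263311. In the 23-mouse fit without 1 homozygous mouse at a time, Hist1h1c, Hist1h1e, Hist1h2bg, Hist2h2aa1, Hist4h4 and Hist2h4 were called in all 10 fits. The others were called in fewer, namely Hist1h2ae in 7, Hist1h4h in 4, Hist1h3e in 3, Hist1h1d and H3f3b in 2 and Hist1h2ac in 1. How well the library kit captures histone transcripts was not tested.

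Hist1h1e (chromosome 13 from 23620629 to 23622558) had 9.05, 19.4 and 23.7 CPM as lowest, median and highest value of the 03 range and 6.43, 6.45, 3.96 and 3.93 CPM in F-0432, F-0440, M-0436 and M-0437. All 6 mice of the 03 range were above the 04 range, and 1 WT mouse, at 9.95 CPM, reached the lower end of the 03 range. The log2 fold change was 1.78 (SE 0.31, adjusted p = 0.095, and 0.0024 in the 23-mouse fit). Hist2h2aa1 had 8.98, 18.7 and 24.3 CPM as lowest, median and highest value of the 03 range and 1.15, 4.93, 3.59 and 2.74 CPM in the 04 range (log2 fold change 2.48, adjusted p = 0.091, and 0.0012 in the 23-mouse fit). Hist4h4 had 0.561 to 29.9 CPM against 0.22 to 1.23 CPM and overlapped through F-0357. H3f3b, which encodes the replacement histone H3.3 and is expressed outside DNA synthesis, had 776 to 2297 CPM against 725 to 927 CPM (log2 fold change 0.98, adjusted p = 0.34, and 0.040 in the 23-mouse fit). The called histone genes differed widely in the share of their 25-base sequences found in other genes, from 5.31% for Hist1h1d, 6.1% for Hist2h4 and 13.4% for Hist1h1c to 36.2% for Hist1h1e, 87.4% for Hist1h3e and 100% for Hist2h2aa1. The assignment of reads is uncertain for those with a high share.

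In the cell cycle list, 1 mouse of the 04 range stood apart. Of 20 genes tested, 3 had positive and 17 negative fold changes, with a median log2 fold change of -0.64 beside 0.0039 for all genes, and none was called in either fit. Averaged over its genes, log2 CPM was 3.59 in M-0436 and 2.51, 2.38 and 2.40 in F-0432, F-0440 and M-0437, against 2.13 to 2.60 in the 03 range. Without M-0436 the 04 range had a mean of 2.43, beside 2.33 in the 03 range and 2.72 with it. Mcm3, a subunit of the replicative helicase, had 43.9 to 103 CPM in the 03 range and 70.8 to 119 CPM in the 04 range (log2 fold change -0.55, adjusted p = 0.37), and Top2a, a topoisomerase of dividing cells, had 2.63 to 5.05 against 4.18 to 7.54 CPM. Ccnd1, the G1 cyclin D1, went the other way, with 32.8 to 118 CPM against 33.9 to 40.4 CPM (log2 fold change 1.00, adjusted p = 0.41).

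In the heat shock list, Hspa1a and Hspb1 were called higher in the 03 range with 23 mice in the fit (2 of 23 tested, beside 0.314% of all genes). No member was called among the 10 mice. Of 23 genes tested, 13 had positive and 10 negative fold changes with a median log2 fold change of 0.07, and 8 had an unadjusted p below 0.05, all of them higher in the 03 range, beside 5.42% of all genes. The ranges did not overlap for Hspa1a, Hspa1b, Hspb1 and Dnajb1, 4 of 23 genes beside 1.13% of all genes. Hspa1a (chromosome 17 from 34969190 to 34972156), the inducible HSP70, had 0.874, 22.1 and 37.5 CPM as lowest, median and highest value of the 03 range and 0, 0.362, 0 and 0.370 CPM in F-0432, F-0440, M-0436 and M-0437. Its 04 range values lay at the bottom of the WT mice (0 to 2.35 CPM), and M-0344 with 0.874 CPM lay within them. The log2 fold change was 6.81 (SE 1.09, adjusted p = 0.091, and 0.0024 in the 23-mouse fit). Hspa1b, its duplicate, had 2.45 to 45.8 CPM against 0.806 to 0.942 CPM (log2 fold change 3.68, adjusted p = 0.091), and 71.2% of the 25-base sequences of Hspa1a occur in other genes, mainly Hspa1b. Hspb1, a small heat shock protein, had 0.561 to 10.1 against 0 to 0.303 CPM (log2 fold change 5.04, adjusted p = 0.17, and 0.033 in the 23-mouse fit).

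The chaperone genes Hspa8 and Hsp90aa1 had log2 fold changes of 0.30 and 0.01 (adjusted p = 0.77 and 0.99). Dnajb1, a cochaperone of HSP70, had 77.2 to 125 CPM in the 03 range and 60.7 to 67.9 CPM in the 04 range (log2 fold change 0.50, adjusted p = 0.25). Dnajb9, a cochaperone of the endoplasmic reticulum that is not on the list, was among the 10 genes with the smallest p and had 92.4 to 118 CPM against 64.2 to 85.7 CPM (log2 fold change 0.43, adjusted p = 0.091), with WT mice at 75.3 to 110 CPM. For Dnajb9 all 6 mice of the 03 range, F-0357 and M-0344 included, were above the 04 range. The noncoding transcript 1810026B05Rik (60.5 to 76.6 against 41.5 to 54.9 CPM) and the low-level Gm38091 (0.525 to 1.67 against 0 to 0.145 CPM) completed the 10 genes with the smallest p (adjusted p = 0.094 and 0.091). Of the 25-base sequences of 1810026B05Rik, 30.8% occur in other genes, mainly Chd2, whose own log2 fold change was 0.74 (adjusted p = 0.34).

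The chemokine genes Ccl3 and Ccl4 were high in F-0333, F-0342, M-0328 and M-0329. Of 21 chemokine and cytokine genes tested, 15 had positive and 6 negative fold changes (median log2 fold change 0.21), and none had non-overlapping ranges. In the 23-mouse fit Ccl3 and Ccl4 were called higher, 2 of 22 tested, beside 0.314% of all genes. Ccl3, a chemokine for monocytes and T cells, had 18.8, 79.1 and 102 CPM as lowest, median and highest value of the 03 range and 25.0, 18.3, 16.9 and 18.1 CPM in the 04 range (log2 fold change 1.76, adjusted p = 0.30, and 0.024 in the 23-mouse fit). F-0357 at 18.8 and M-0344 at 20.1 CPM lay among the 04 range, and all 10 homozygous mice lay above the WT mice (5.91 to 14.7 CPM). Ccl4 had 21.9 to 127 against 25.3 to 30.6 CPM (adjusted p = 0.33, and 0.040 in the 23-mouse fit). For Ccl2 (3.16 to 32.9 against 4.00 to 12.5 CPM) and Tnf (2.83 to 34.2 against 3.48 to 16.3 CPM) the log2 fold changes of 1.64 and 1.16 (adjusted p = 0.45 and 0.61) turned to -0.77 and -1.10 without the 4 libraries with the highest Fos. Il1b had a log2 fold change of -0.68 (adjusted p = 0.51).

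Glucocorticoid-responsive genes held a further gene without overlap, Tsc22d3, which encodes the protein GILZ. It had 70.6, 93.9 and 157 CPM as lowest, median and highest value of the 03 range and between 52.2 and 56.2 CPM in the 04 range (log2 fold change 0.95, adjusted p = 0.18), with WT mice at 56.3 to 109 CPM. The 04 range lay below all WT mice. Sgk1, a kinase induced by the same hormones, had 693 to 1764 against 591 to 1022 CPM (log2 fold change 0.77, adjusted p = 0.39), while Fkbp5 had a log2 fold change of -0.11 (adjusted p = 0.91). Of the 15 genes tested, 8 had positive and 7 negative fold changes, and 1 was higher without overlap, beside 1.13% of all genes.

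Lists of microglial states had small median fold changes. Of 26 homeostatic genes tested, 14 had positive and 12 negative fold changes (median log2 fold change 0.01). Of 29 disease-associated microglia genes, 6 had positive and 23 negative fold changes (median -0.19), 8 had an unadjusted p below 0.05 and lower values in the 03 range, beside 4.2% of all genes, and none was called in either fit. The ranges did not overlap for 1 of the 29, which was lower in the 03 range, beside 0.765% of all genes. In this list, Spp1 (osteopontin) had 3.65 to 8.44 CPM in the 03 range and 4.59 to 28.6 CPM in the 04 range (log2 fold change -1.18, adjusted p = 0.42), and Csf1, a growth factor of microglia, had 20.8 to 29.8 against 29.7 to 43.9 CPM (log2 fold change -0.52, adjusted p = 0.29). Genes of serine synthesis and the integrated stress response had 3 positive and 17 negative fold changes of 20 tested (median -0.37), with none called in either fit. Of these 20, 6 had an unadjusted p below 0.05 and lower values in the 03 range, beside 4.2% of all genes. Psat1, an enzyme of serine synthesis, had 13.2 to 21.3 against 21.2 to 64.5 CPM (log2 fold change -0.91, adjusted p = 0.33). The amino acid transporter gene Slc7a5 had 71.4 to 120 against 115 to 191 CPM (log2 fold change -0.67, adjusted p = 0.27). Interferon-stimulated genes had 24 positive and 10 negative fold changes of 34 tested (median 0.19), and cytosolic ribosomal protein genes 7 positive and 40 negative of 47 (median -0.11), with no calls in either fit.

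**Figure D5:**
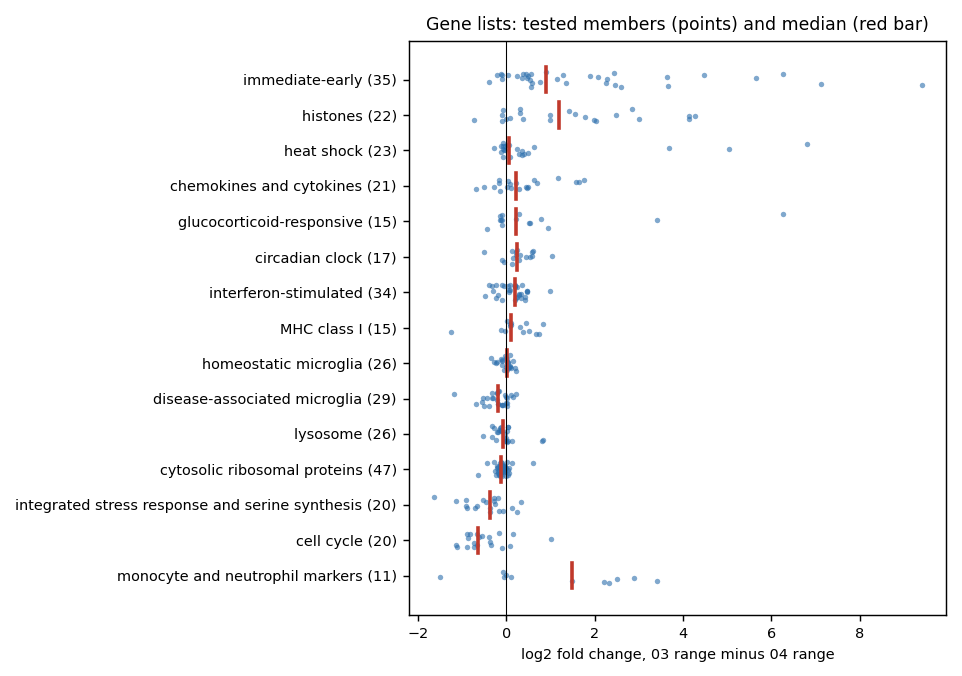
Log2 fold change between the ranges (x axis, 03 minus 04) of every tested member of 15 gene lists (y axis, number tested in parentheses), with a red bar at each list's median. Immediate-early genes and histones have medians of 0.90 and 1.2, while the medians for homeostatic and disease-associated microglia genes are 0.01 and -0.19.

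Some markers of monocytes and neutrophils had higher values in the 03 range, but none was called in either fit (smallest adjusted p = 0.36). Of 11 monocyte and neutrophil markers tested, 7 had positive and 4 negative fold changes (median log2 fold change 1.49). An unadjusted p below 0.05 was found for 4 of the 11, all higher in the 03 range, beside 5.42% of all genes. Mean log2 CPM of the 11 was 2.02 to 3.39 in the 03 range, -0.19 to 2.42 in the 04 range and -0.35 to 2.47 in the WT mice. The summed level of the 19 genes with a row was 630.9 to 1141 CPM in the 03 range, 631.3 to 936.7 CPM in the 04 range and 643.8 to 1031 CPM in the WT mice. Nearly all of this sum was Csf3r, at 592.6 to 1023 CPM in the 03 range and 588.4 to 919 CPM in the 04 range. S100a8, a calcium-binding protein of neutrophils, had 5.95 to 22 CPM in the 03 range and 0 to 7.75 CPM in the 04 range (log2 fold change 2.33, adjusted p = 0.49). The monocyte marker Ccr2 had 8.48 to 16.1 against 7.85 to 20.2 CPM and Ly6c2 stayed at or below 1.01 CPM. Their part in the differences above was not tested.

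Some further genes called in the 23-mouse fit belong to neither of these groups. U3 small nucleolar RNA genes (Rnu3b1 and Rnu3b3, with identical counts) had 0.673 to 4.71 CPM in the 03 range, 0.362 to 0.439 CPM in the 04 range and 0.949 to 2.87 CPM in the WT mice (log2 fold change 2.71, adjusted p = 0.14, and 0.0050 in the 23-mouse fit). Zfp874b, a zinc finger gene, had 5.86 to 11 against 3.41 to 5.64 CPM with WT mice at 7.31 to 10.1 CPM, and passed against WT only in the 04 range (log2 fold changes 0.04 and -0.93, adjusted p = 0.90 and 0.0085). Ddx23, a helicase of the spliceosome, had 15.4, 17.6 and 20.4 CPM in F-0333, F-0342 and M-0344, but 5.76, 4.06 and 2.61 CPM in F-0357, M-0328 and M-0329 and 2.07 to 4.47 CPM in the 04 range, with WT mice at 15.6 to 22.3 CPM. Its values were thus split within the 03 range. Rnu3b1, Zfp874b and Ddx23 were chosen after their values were seen, and all 191 of the 25-base sequences of Rnu3b1 occur in other genes, mainly other U3 copies. Zfp874b shares 42.5% of its 25-base sequences with other genes, mainly Zfp874a, whose own log2 fold change was -0.29 (adjusted p = 0.69).

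Bin1 and genes linked to the genotype in earlier results of these data did not separate the ranges. Bin1 had 327, 476 and 673 CPM as lowest, median and highest value of the 03 range and 539, 569, 338 and 379 CPM in F-0432, F-0440, M-0436 and M-0437 (log2 fold change 0.15, adjusted p = 0.84), with WT mice at 595 to 810 CPM. Against the WT mice, Bin1 was lower in both ranges in the 4-group fit. The log2 fold changes were -0.55 in the 03 range and -0.68 in the 04 range (edgeR, adjusted p = 0.0089 and 0.0087). The cause of this difference was not tested. The Bin1 values are counts of microglia over the whole gene and do not check the deletion in neurons. Gnpda1 had 114 to 138 against 121 to 154 CPM (adjusted p = 0.75), and Lilra5 10.7 to 31.5 against 21.6 to 37.8 CPM (adjusted p = 0.67). The pseudogene Gm8615, too low to be tested, stayed at or below 1.05 CPM in all 10 mice against 8.26 to 12.9 CPM in the WT mice. Eno1b, which shares 90.9% of its 25-base sequences with other genes, had 69.6, 81.8 and 87.8 CPM in F-0333, F-0357 and F-0432 and at most 0.741 CPM in the other 7 mice, so its split crossed the ranges.

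Compared with the WT mice in the 4-group fit, the 03 range had 493 genes called (3.69% of 13373, 242 higher, or 1.81%, and 251 lower, or 1.88%) and the 04 range 323 (2.42%, 159 higher, or 1.19%, and 164 lower, or 1.23%). Both comparisons share the WT mice and differ in the number of homozygous mice, so the counts are given side by side only. Of the 42 genes called higher in the 03 than in the 04 range with 23 mice, 36 had an adjusted p below 0.05 for the 03 range against WT and 6 for the 04 range against WT. In 37 of them the 02 range mice were nearer to the 04 range. Selection for high values in the 03 range partly builds in these counts. Of the 140 genes higher in the 03 range without overlap, the 02 range mice were nearer to the 04 range in 86 and to the 03 range in 54. Of the 95 lower without overlap, they were nearer to the 03 range in 54 and to the 04 range in 41. The difference between ranges was not shown to depend on sex, with 0 genes at an adjusted p below 0.05 for the interaction by edgeR and 0 by limma-voom, and 640 and 678 genes at an unadjusted p below 0.05.

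The calls depended on single libraries. Among the 10 mice, the count of 1 became 38 (29 outside the immediate-early genes) without F-0357, 22 (17 outside) without M-0344, 2 without F-0333 or F-0440, and 0 without F-0432, M-0328, M-0329, M-0436 or M-0437. In the 23-mouse fit the count of 49 became 75, 81, 78, 92 and 30 without F-0333, F-0357, F-0432, M-0344 and M-0437. The 04 range against WT fell from 323 calls to 213 without M-0436 and to 208 without M-0437. Without F-0333, F-0342, M-0328 and M-0329, the 4 libraries with the highest Fos, 2 mice of the 03 range remained, and the 23-mouse fit called 33 genes, of which 5 were among the 49 (Gpr65, B4galnt1, H2-DMb2, Ddx23 and Jun). The sign was unchanged in 41 of the 45 that could be tested. These genes had been called with the same 04 range, WT and heterozygous mice, so agreement in sign is partly built in. Gpr65 and B4galnt1 then had log2 fold changes of -1.93 and -1.56 (adjusted p = 0.0090 and 5.2e-05), and Hspa1a and Hist1h1e had 4.93 and 0.98 (adjusted p = 0.21 and 0.51).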

How the data were processed

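RNA was extracted from sorted microglia of single mice, 1 library per mouse, and cDNA was made with a low-input kit that does not mark strand. Per the labels and methods, the authors aligned single-end reads to mm10 and estimated gene counts with RSEM, and they deposited expected counts per gene, neither scaled for depth nor for length. Handling of reads with several matches is not given in the sources used here. The table held 43411 gene rows and 23 sample columns. Another 2 labelled samples had no column and were not analysed here, and no column of per-sample values was left unused. Of the values, 82.2% were whole numbers, and all were rounded. Chromosome positions are those of the GRCm38 annotation, which matched 42929 rows by identifier.

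The 10 homozygous mice were compared with edgeR 4.0.16 in R 4.3.3 (quasi-likelihood F test), using TMM scaling, edgeR's filter on low counts by range, sex as a covariate and Benjamini-Hochberg adjustment over all genes tested. A call required a fold change over 1.5 together with an adjusted p under 0.05. A second fit held all 23 mice in 4 groups. Every adjusted p for a gene is from edgeR unless limma (3.58.1, voom) or DESeq2 (1.42.0) is named. CPM values are TMM-scaled, and log2 CPM has a prior count of 2, which the fits do not use. Fitted fold changes of genes near 0 in the 04 range (Fos, Fosb, Hspa1a, Hspb1, Gm38091) depend on the prior count of edgeR's fit, which was left at its default. With 6 and 4 mice, 210 splits exist and the smallest two-sided exact permutation p is 0.0095. Promoters were RefSeq windows of 300 bases, and shared sequence is the share of a gene's exonic 25-base sequences found in other genes.

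On simulated data for the 10 mice (12203 genes), edgeR recovered 72% of genes changed by a log2 fold change of 1 and 85% of those changed by 1.5, with 7 unchanged genes called. For all 23 mice (13099 genes) it recovered 88% and 95%, with 7 unchanged genes called. DESeq2 recovered 85% and 91% for the 10 mice and 91% and 99% for all 23 mice. It called more unchanged genes than edgeR, 23 for the 10 mice and 15 for all 23 mice. Whether these rates hold for differences carried by only some mice of a range was not tested.

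The 2 ranges, gene lists and named genes were chosen with earlier results of these data known. Named were the called gene with the smallest p in each direction, up to 8 called genes with the largest rise and fall outside the immediate-early genes, the 6 immediate-early genes with the largest fold changes, up to 3 called members of every other list, 11 genes taken from earlier results, and, with fewer than 10 calls, the 10 genes with the smallest p. Other genes named as examples were chosen after their values were seen. Alternatives were other tests, scalings, filters and thresholds, fits without the sex term, by sex, without the 4 libraries with the highest Fos, with the mean immediate-early level as a covariate, and without each mouse in turn.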

Additional observations from a re-analysis of the deposited data

Results flagged for a closer look

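In 74 checks, 7 groups held a mouse whose distance from its neighbours was large for the range of the group by Dixon's criterion, which chance meets in about 1 in 20 groups. In the 04 range, Klf2 was lowest in M-0437 at 1.48 CPM, with the other 3 mice at 5.15 to 6.15 CPM. Gm8615 was lowest in F-0432 at 0.121 CPM, with the others at 0.659 to 0.741 CPM. In the 03 range, Hist2h4 was lowest in F-0357 at 1.54 CPM, below 5.77 to 9.07 CPM in the other mice. Gm38091 was lowest in F-0333 at 0.525 CPM, below 1.32 to 1.67 CPM. Mctp1 was highest in F-0342 at 42.9 CPM, above 28.6 to 29.9 CPM in the others, and still below the 04 range. The share of counts from monocyte and neutrophil markers was highest in F-0432 of the 04 range at 0.0953%, above 0.0664% to 0.0701%. The share from erythrocyte markers was highest in M-0437 of the 04 range at 0.00129%, above 0 to 0.000187%.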

How the results depend on the processing

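For the 10 mice, the count of 1 call (1 outside the immediate-early genes) became 86 (74) with DESeq2, 334 (316) without a filter on low counts, where the smallest adjusted p was computed as 0, 49 (36) with all 23 mice in the fit, 2 (2) in males, 2 (2) without the 4 libraries with the highest Fos, and 0 (0) when tested against a 1.2-fold change, and it ranged from 0 to 38 (0 to 29) without a mouse. The cause was not tested. Gpr65 kept its sign throughout, with adjusted p values of 0.065 in the 1.2-fold test, 0.57 in females, 0.19 in males, 0.24 without those 4 libraries and 0.12 with the immediate-early covariate. Alternatives for the 23-mouse fit were chosen after seeing the data: the count of 49 became 17 with limma-voom (7 higher, 10 lower), 127 with DESeq2 and 8 with the immediate-early covariate (2 higher, 6 lower), and ranged from 30 to 92 without a homozygous mouse. Of the 49 genes themselves, 12 were still called with limma-voom, 48 with DESeq2 and 3 with the covariate. Against WT, counts without a mouse ranged from 361 to 536 for the 03 range and from 208 to 398 for the 04 range. Signs turned for Eno1b (-0.44 with DESeq2, -0.81 without F-0440), Ccl2 and Tnf (-0.77 and -1.10 without the 4 libraries, -0.83 and -1.22 with the covariate). Eno1b reached 5.17 without F-0432. Among values of single genes, 536 kept their side of the threshold, 61 newly passed it and 12, all of Gpr65, no longer passed. Counts under 1 CPM limit Fosb, Gm38091, Hspa1a and Hspb1 in the 04 range. No paired analysis was possible because animal numbers are not shared between groups.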
